A study of Mus musculus with 18 samples.

Results

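The genes described here are 5 members of the interleukin-6 (IL-6) family measured in mouse macrophages: the ligand genes Il6, Lif and Osm and the receptor genes Il6ra and Il6st. They were taken by their Ensembl gene identifiers from the 50600 genes of the count table, and all 5 passed the filter on low counts that left 15663 genes to test. The study asked how the kinase inhibitor defactinib, which acts on PYK2 and the related kinase FAK, changes the response of macrophages to lipopolysaccharide (LPS), with and without the transcription factor IRF5. Bone marrow-derived macrophages (BMDMs) from wild-type (WT) mice or from IRF5-/- mice (IRF5 KO) were grown with the growth factor GM-CSF for 8 days. RNA-seq libraries, which the labels name mRNA-seq, were made from total RNA. Each genotype had 3 groups of 3 libraries. Unstimulated cells received no LPS. Their labels name the vehicle DMSO while the count table names the same libraries UT, so it is uncertain whether they received vehicle. LPS DMSO cells received DMSO for 1 h and then 100 ng/ml LPS for a further 2 h, and LPS defactinib cells received 3.5 μM defactinib for 1 h before LPS at the same dose and time. The labels call the 3 libraries of a group biological replicates. The sources used here do not tie the libraries to single animals, and for the marrow donors they give only the general statement of the study's methods that male C57BL/6 J mice aged 8 to 11 weeks were purchased.

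Cytokines of the IL-6 family signal through a shared receptor subunit, gp130, which is encoded by Il6st. IL-6 binds its own receptor IL-6Rα, encoded by Il6ra, and the complex then engages gp130, whereas LIF and oncostatin M, encoded by Lif and Osm, use gp130 paired with LIFR or OSMR. These receptors activate JAK kinases and chiefly the transcription factor STAT3, whose target Socs3 encodes an inhibitor that acts on gp130 itself. In macrophages IL-6 is a classic inflammatory product of Toll-like receptor signalling, induced through NF-κB and C/EBP factors, and its mRNA is short-lived because of RNA-binding proteins such as Regnase-1, encoded by Zc3h12a.

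In mm10, Il6 (ENSMUSG00000025746) lies on the plus strand of chromosome 5, from 30013114 to 30019981. Osm (ENSMUSG00000058755) and Lif (ENSMUSG00000034394) are neighbours on the plus strand of chromosome 11, from 4236420 to 4241026 and from 4257557 to 4272514, with 16.5 kb between the end of Osm and the start of Lif. Il6ra (ENSMUSG00000027947) lies on the minus strand of chromosome 3, from 89864059 to 89913196, and Il6st (ENSMUSG00000021756) on the plus strand of chromosome 13, from 112464070 to 112510086. All 5 are protein-coding, and their values are counts over all annotated exons together, so that they do not separate isoforms. Il6ra alone overlaps another annotated gene, the antisense Gm42809, which had 20 counts over all 18 libraries against 18585 for Il6ra, with counting by strand.

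The 250 bases before the RefSeq starts of Il6 and Lif are shown because both ligand genes rose with LPS while after LPS with DMSO Il6 was higher in WT and Lif in IRF5 KO. They are given 5′ to 3′ on the plus strand of GRCm38.p6, at chr5:30012864-30013113 for Il6 and chr11:4257318-4257567 for Lif, and capitals mark every match to the letters searched, on both strands.
Il6: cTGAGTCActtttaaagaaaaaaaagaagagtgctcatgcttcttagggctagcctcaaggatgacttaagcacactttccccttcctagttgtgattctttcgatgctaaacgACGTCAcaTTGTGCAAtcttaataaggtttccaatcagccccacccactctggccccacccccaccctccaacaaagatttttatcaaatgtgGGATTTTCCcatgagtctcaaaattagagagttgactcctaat
Lif: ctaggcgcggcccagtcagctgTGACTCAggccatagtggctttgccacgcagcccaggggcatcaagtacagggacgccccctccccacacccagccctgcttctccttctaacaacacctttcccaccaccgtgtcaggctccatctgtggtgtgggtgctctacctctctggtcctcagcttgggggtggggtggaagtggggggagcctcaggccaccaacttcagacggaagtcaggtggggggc
In the Il6 sequence the capitals are, in order, an AP-1 match (TGANTCA) near the 5′ end, a cyclic AMP response element core (ACGTCA) at -136, a C/EBP match (TTGCNNAA, on the opposite strand) at -128 and an NF-κB match (GGNNTTTCC) at -43. The Lif sequence holds an AP-1 match at -228 and none of the other letters searched. None of these matches overlaps another. Of the 32851 RefSeq promoters, each 250 bases before and 50 after a start, 7.81% held the AP-1 letters, 7.51% the ACGTCA core, 10.8% the C/EBP letters and 5.82% the NF-κB letters. The promoter of Il6ra held no match to these, to the letters of the interferon elements ISRE (AAANNGAAA, in 10.6% of promoters) and GAS (TTCNNNGAA, in 8.3%), or to the GC box (GGGCGG) and the TATA box (TATAAA, in 13.6%). That of Il6st held 3 GC boxes, letters that 35.7% of promoters hold. The matches describe letters in these windows and were not tested as binding sites.

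Each library had from 39282181 to 61949143 read pairs assigned to genes. Levels are CPM, counts scaled to a common library size, after TMM normalization, and each difference is a log2 fold change from edgeR's quasi-likelihood fit of all 18 libraries, with its standard error (SE) and its p adjusted over the 15663 tested genes. A gene was called when its adjusted p was below 0.05 and its log2 fold change beyond 1. The macrophage markers, of which 6 of 6 passed the filter, summed to 1430 to 1970 CPM in WT and 1860 to 2870 CPM in IRF5 KO libraries. Dendritic cell markers were also high, at 3650 to 6420 CPM. Most of that was Itgax and H2-Ab1, with group means of 1890 to 2660 and 1760 to 3200 CPM. Ccr7 averaged 23.2 to 311 CPM, Zbtb46 25.2 to 91.3 CPM and Flt3 0.519 to 2.16 CPM. Neutrophil markers summed to 42.4 to 60.5 CPM before LPS and 89.6 to 170 CPM after it in both genotypes. Nearly all of that was S100a8 and S100a9. Ly6g was at most 1.09 CPM, and Mpo, Elane and Retnlg at most 0.46 CPM, in any library. Markers of T and NK cells, B cells and fibroblasts summed to at most 6.19 CPM each. Irf5 transcripts were still present in unstimulated IRF5 KO cells, at 365 ± 30.8 CPM against 614 ± 32.5 CPM in WT (SD, n = 3 each). Irf5 was at 404 ± 51.3 CPM in IRF5 KO and 451 ± 21.1 CPM in WT after LPS with DMSO, and with defactinib it was higher in IRF5 KO, at 369 ± 20.2 CPM against 276 ± 90.2 CPM (SD, n = 3 each). Gene-level counts cannot tell which part of the gene the knockout lacks, so these values do not check the genotype labels.

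The libraries labelled IRF5 KO LPS DMSO were unlike each other. The log2 CPM of replicate 3 had a Pearson r of 0.932 with replicates 1 and 2 over the tested genes, while replicates 1 and 2 had 0.992 with each other. Its r was 0.978 to 0.979 with unstimulated IRF5 KO, 0.959 to 0.961 with unstimulated WT and 0.954 to 0.957 with WT LPS DMSO libraries. With the LPS defactinib libraries it was 0.941 to 0.943 in IRF5 KO and 0.905 to 0.92 in WT. The chi-square of counts per gene was 2.33 between replicates 1 and 2, where sampling noise alone gives 1, and 441 and 425 against replicate 3. In the other groups it was also uneven, from 3.82 to 55.2 in both unstimulated groups, 25 to 31.3 for LPS DMSO in WT, and for LPS defactinib 84.1 to 183 in WT against 4.79 to 18.2 in IRF5 KO. Results that use this group are therefore also given without replicate 3 and without replicates 1 and 2, and the reason for the difference was not tested.

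Il6 was nearly silent before LPS and became an abundant transcript in LPS-stimulated WT cells. Unstimulated WT libraries held 0.112, 0.0846 and 0.227 CPM of Il6, from 6, 5 and 11 counts. After LPS with DMSO the WT libraries held 1090, 950 and 833 CPM, from 47212, 37143 and 32766 counts. The groups did not overlap, and the change in Il6 was a log2 fold change of 12.74 (SE 1.49, adjusted p = 7.43e-06). In bulk RNA, fewer cells that express a gene and less of its RNA per cell cannot be told apart.

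Defactinib before LPS left little of this Il6 in WT cells. The WT LPS defactinib libraries held 3.84, 0.674 and 13.6 CPM of Il6, all far below the WT LPS DMSO libraries and all above the unstimulated ones. Il6 fell by 7.31 on the log2 scale against WT LPS DMSO (SE 1.13, adjusted p = 8.28e-05) and remained above unstimulated WT by a log2 fold change of 5.43 (SE 1.32, adjusted p = 0.00343). The latter lost its call with limma-voom, at 4.57 (adjusted p = 0.182). These 3 libraries differed among themselves, with replicate 3 highest and replicate 2 lowest. Their fibroblast and stromal markers, of which 2 of 6 passed the filter, summed to 0.186, 1.11 and 6.19 CPM in replicates 1, 2 and 3. Dcn, which did not pass the filter, reached 5.22 CPM in this group. In WT the sum of the 3 endothelial markers, all of which passed the filter, moved with Il6. This sum was 3.22 to 3.62 CPM in unstimulated cells, 16.7 to 30 CPM after LPS with DMSO and 2.3 to 5.86 CPM with defactinib. Most of the sum after LPS with DMSO was Kdr, which was at 1.54 ± 0.22, 19.8 ± 7.11 and 1.92 ± 2.19 CPM in these groups (SD, n = 3 each). Pecam1 was at 0.78 ± 0.198, 1.18 ± 0.19 and 1.11 ± 0.253 CPM (SD, n = 3 each), and Cdh5 averaged at most 1.4 CPM in any group. In IRF5 KO the sum was 4.43 to 5.24 CPM before LPS and 3.16 to 3.61 CPM with LPS and defactinib, where Il6 was higher than before LPS. After LPS with DMSO the IRF5 KO sum was 2.42, 3.61 and 9.67 CPM in replicates 1, 2 and 3. The part of these markers in the level of Il6 was not tested.

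In IRF5 KO cells Il6 also rose with LPS, to lower levels than in WT with DMSO and to higher levels than in WT with defactinib. Unstimulated IRF5 KO libraries held 0.405, 0.712 and 0.472 CPM of Il6, from 26, 37 and 24 counts and each above every unstimulated WT library. The log2 fold change of WT against IRF5 KO, -1.91, did not pass the test (SE 1.56, adjusted p = 0.511), and in a fit of only the 2 groups it was called (-1.91, SE 0.44, adjusted p = 0.00505). After LPS with DMSO, IRF5 KO replicates 1 and 2 held 28.3 and 27.9 CPM of Il6, and replicate 3 held 382 CPM. All 3 lay below the lowest WT LPS DMSO library, and replicate 3 lay closer to WT than to the other IRF5 KO libraries on the log scale. With defactinib the IRF5 KO libraries held 104, 92.8 and 102 CPM, which is above replicates 1 and 2 of the IRF5 KO LPS DMSO group and below its replicate 3.

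The Il6 tests in IRF5 KO cells followed these libraries. Il6 rose with LPS and DMSO by a log2 fold change of 8.11 (SE 1.23, adjusted p = 0.000649), at 5.74 without replicate 3 and 9.52 without replicates 1 and 2, and all of these were called. In a fit of only the groups compared the call was lost, at 8.15 (adjusted p = 0.0705). WT exceeded IRF5 KO after LPS with DMSO by 2.71 (SE 0.91, adjusted p = 0.0215). That log2 fold change was 5.09 without replicate 3, and the call was lost without replicate 1 (2.21, adjusted p = 0.0729), without replicate 2 (2.21, adjusted p = 0.0731), without both (1.31, adjusted p = 0.31) and in a fit of only the groups compared (2.67, adjusted p = 0.109). Between defactinib and DMSO in LPS-stimulated IRF5 KO cells the log2 fold change of Il6 was -0.55 (SE 0.86, adjusted p = 0.737), and it turned to 1.82 without replicate 3 (adjusted p = 0.13) and was -1.96 without replicates 1 and 2 (adjusted p = 0.0651). With defactinib, the order of the genotypes was the reverse of that with DMSO, since WT was lower than IRF5 KO by a log2 fold change of -4.04 (SE 0.98, adjusted p = 0.00477) and none of the 6 libraries overlapped.

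**Figure D1:**
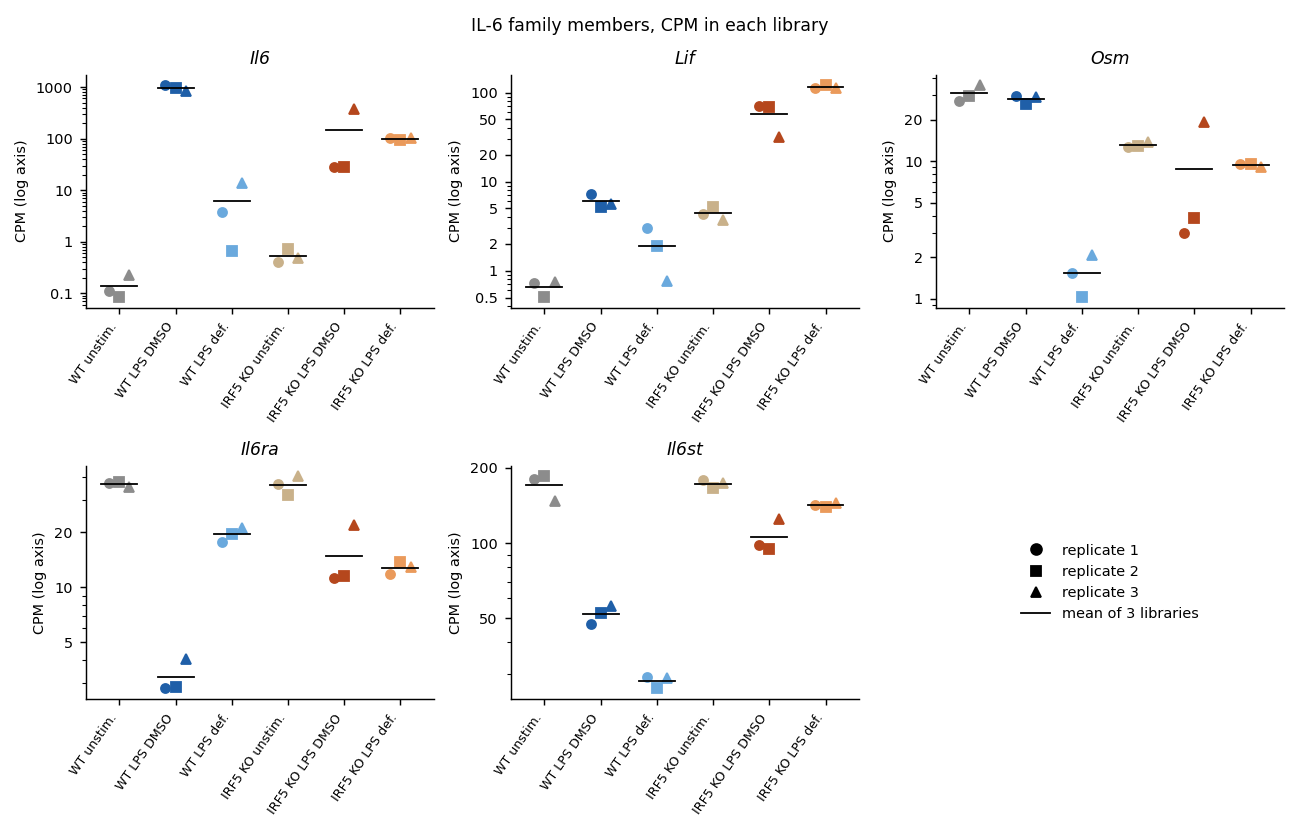
CPM of each family member (log axis, a separate scale for each gene) in the 18 libraries by group, with a marker for each replicate and a line at the mean of 3 libraries. Il6 runs from 0.0846 CPM in an unstimulated WT library to 1090 CPM in a WT LPS DMSO library, Lif is highest in IRF5 KO LPS defactinib at 112 to 121 CPM, and replicate 3 of IRF5 KO LPS DMSO lies away from replicates 1 and 2 for all 5 genes.

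Lif was higher in IRF5 KO than in WT cells in every condition. Il6 had this order before LPS and with defactinib, and the opposite order after LPS with DMSO. Before LPS the WT libraries held 0.73, 0.507 and 0.742 CPM of Lif and the IRF5 KO libraries 4.32, 5.14 and 3.7 CPM, without overlap. The log2 fold change of WT against IRF5 KO was -2.73 (SE 0.4, adjusted p = 0.000211), and Lif was the only member called between the unstimulated genotypes, where 7.31% of tested genes were called. Osm, at 1.24 in that comparison, was also called by DESeq2 and limma-voom, and Osm and Il6 in a fit of only these groups. LIF supports stem cell self-renewal and acts on many tissues, and macrophages are among its sources in inflammation.

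After LPS with DMSO, Lif reached 7.26, 5.22 and 5.67 CPM in WT and 71.3, 69.6 and 31.9 CPM in IRF5 KO. Even IRF5 KO replicate 3, the lowest of its group, lay above all WT libraries. Lif rose with LPS by a log2 fold change of 3.20 in WT (SE 0.4, adjusted p = 1.36e-05) and of 3.71 in IRF5 KO (SE 0.37, adjusted p = 1.42e-05), and the difference between these responses, -0.52, did not pass the test (SE 0.53, adjusted p = 0.513). It was 0.32 without IRF5 KO LPS DMSO replicates 1 and 2 and -0.80 without replicate 3. WT was below IRF5 KO after LPS with DMSO by a log2 fold change of -3.25 (SE 0.36, adjusted p = 5.74e-06), which was called without replicate 3 (-3.54) and without replicates 1 and 2 (-2.41).

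With defactinib, Lif was at 3.05, 1.9 and 0.771 CPM in WT libraries and at 112, 121 and 112 CPM in IRF5 KO libraries. These were its lowest LPS-stimulated values in WT and its highest values of all in IRF5 KO. In WT Lif fell by 1.66 on the log2 scale against LPS DMSO (SE 0.37, adjusted p = 0.00141). It remained above unstimulated WT by 1.54 (SE 0.41, adjusted p = 0.00603), a call lost with limma-voom at 1.37 (adjusted p = 0.0946). In IRF5 KO its log2 fold change against LPS DMSO was 1.00 (SE 0.33, adjusted p = 0.0939), although no library overlapped, and it was called at 1.83 without replicates 1 and 2 (adjusted p = 0.00175) and by limma-voom at 1.10 (adjusted p = 0.0265). The genotypes then differed by a log2 fold change of -5.91 (SE 0.42, adjusted p = 4.85e-08).

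Gata2, on the list of markers for mast cells and basophils, was higher in IRF5 KO cells as Lif was. Of the 6 markers of that list 3 passed the filter, and their sum was 0.65 to 5.14 CPM in WT and 27.4 to 52.2 CPM in IRF5 KO libraries. Nearly all of it was Gata2, a transcription factor also found in progenitors, whose level before stimulation averaged 32.3 ± 1.68 CPM for IRF5 KO cells but 3.27 ± 0.0953 CPM for WT cells (SD, n = 3 each). Cpa3, a mast cell protease, was at most 1.07 CPM in any library, and Fcer1a and Tpsb2 averaged at most 0.0227 CPM in any group. Mcpt8, a basophil protease, was at 0.191 ± 0.163 CPM in unstimulated WT and 0.125 ± 0.09 CPM in unstimulated IRF5 KO (SD, n = 3 each). Within IRF5 KO the groups averaged 32.3 to 34.8 CPM of Gata2, whereas Lif ran from 3.7 to 121 CPM. The part of these markers in the level of Lif was not tested.

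Osm encodes oncostatin M, which myeloid cells release, and it was the main family ligand of resting cells. Unstimulated WT libraries held 27.5, 29.9 and 35.6 CPM of Osm and WT LPS DMSO libraries 29.8, 26 and 29.1 CPM. These ranges overlapped, and the log2 fold change of LPS was -0.13 (SE 0.47, adjusted p = 0.85). With defactinib and LPS the WT libraries held 1.53, 1.03 and 2.08 CPM, below every other library of the series. Osm thus fell by 4.19 on the log2 scale against WT LPS DMSO (SE 0.55, adjusted p = 1.85e-05) and by 4.32 against unstimulated WT (SE 0.55, adjusted p = 2.74e-05), so that among the ligands it alone was called below its unstimulated level.

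In IRF5 KO cells Osm was at 12.7, 12.9 and 13.7 CPM before LPS and at 9.57, 9.47 and 9 CPM after LPS with defactinib, while the IRF5 KO LPS DMSO libraries held 2.98, 3.84 and 19.3 CPM. Replicates 1 and 2 of that last group were the lowest and replicate 3 the highest of the IRF5 KO libraries. Before LPS every WT library exceeded every IRF5 KO library, and the log2 fold change of 1.24 did not pass the edgeR test (SE 0.47, adjusted p = 0.0975). It was called by DESeq2 (1.25, adjusted p = 0.0361), by limma-voom (1.23, adjusted p = 0.0164) and in a fit of only the 2 groups (1.25, adjusted p = 1.44e-06), and the fit of all groups draws its spread also from the IRF5 KO LPS DMSO libraries. Without replicate 3 of that group the same comparison gave 1.24 (adjusted p = 8.16e-06), and without its replicate 1 it gave 1.25 (adjusted p = 0.033).

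The LPS response of Osm in IRF5 KO cells depended on which libraries were kept. With all 3 its log2 fold change was -0.58 (adjusted p = 0.342), without replicate 3 it fell by 1.94 on that scale (adjusted p = 1.39e-07), and without replicates 1 and 2 it was 0.57 (adjusted p = 0.125). Defactinib against DMSO in these cells gave 0.10 (adjusted p = 0.927), 1.46 without replicate 3 (adjusted p = 0.000269) and -1.06 without replicates 1 and 2 (adjusted p = 4e-04), so that both subsets were called, in opposite directions. After LPS with DMSO, Osm was higher in WT by 1.69 (SE 0.48, adjusted p = 0.00899), by 3.05 without replicate 3 (adjusted p = 6.11e-10) and, no longer called, by 0.53 without replicates 1 and 2 (adjusted p = 0.0584) and by 1.66 in a fit of only the groups compared (adjusted p = 0.126). With defactinib it was lower in WT by a log2 fold change of -2.59 (SE 0.53, adjusted p = 0.00128), a comparison that uses none of those libraries.

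**Figure D2:**
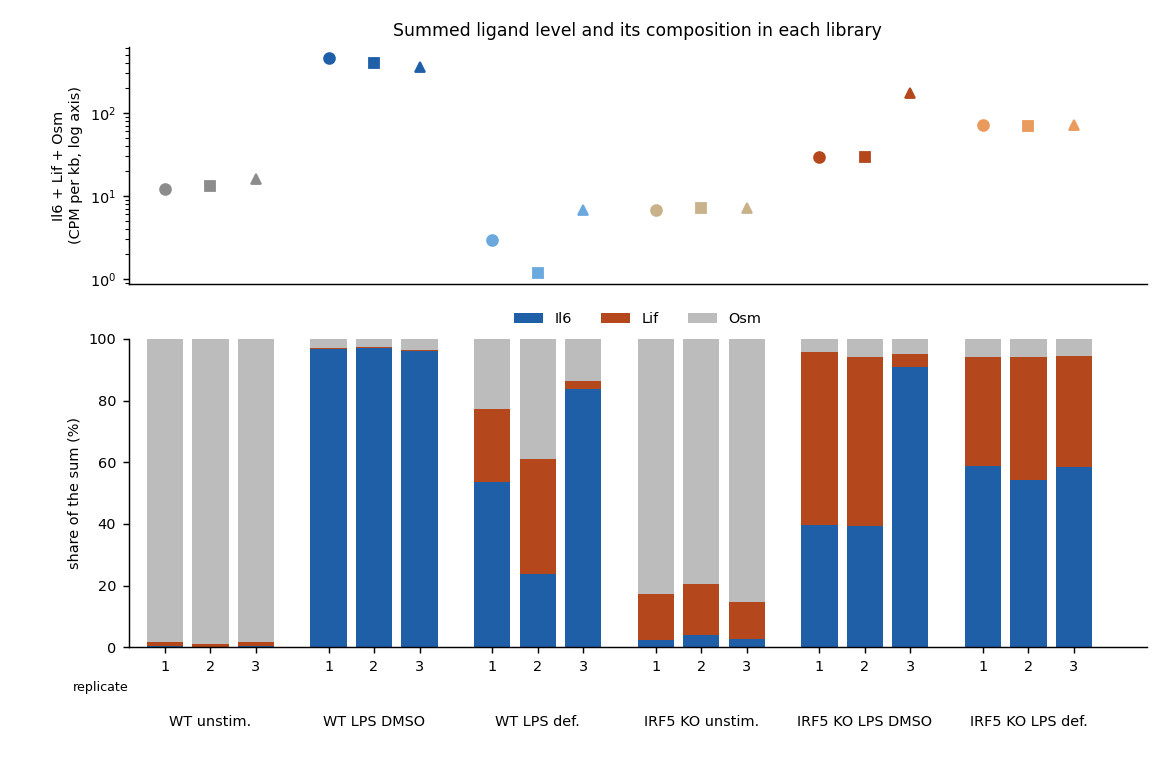
Summed level of Il6, Lif and Osm in each library in CPM per kb of exon (upper panel, log axis) and the share of each gene in that sum in percent (lower panel, stacked bars), by group and replicate. Osm makes up 98.3% to 98.9% of the sum in unstimulated WT libraries and Il6 96.1% to 96.9% in WT LPS DMSO libraries, while Lif holds 35.3% to 39.6% in IRF5 KO LPS defactinib libraries.

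The levels of the 3 ligand genes can be set side by side only per length, as CPM per kb of exon. On that scale their sum was 12.3 to 16 in unstimulated WT libraries, of which Osm was 98.5% ± 0.346 (SD, n = 3), and 357 to 466 in WT LPS DMSO libraries, of which Il6 was 96.6% ± 0.436 (SD, n = 3). With defactinib the WT sum was 1.17 to 6.71, below every unstimulated WT library, and Il6 made up 53.5%, 23.7% and 83.7% of it in replicates 1, 2 and 3. The mixture in IRF5 KO cells was a different one. Osm was 82.5% ± 3.01 (SD, n = 3) before LPS, at a sum of 6.75 to 7.13. In IRF5 KO LPS DMSO replicates 1 and 2 Lif was the largest share, at 56% and 54.8%, with Il6 at 39.6% and 39.4%, whereas in replicate 3 Il6 was 90.9%. In IRF5 KO LPS defactinib libraries Il6 was 57.3% ± 2.49 and Lif 37% ± 2.31 (SD, n = 3), at a sum of 70.2 to 72.8. For each unit of Lif per kb there were 264 to 326 units of Il6 in WT LPS DMSO libraries and 1.37 to 1.67 in IRF5 KO LPS defactinib libraries.

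Il6ra, which gives a cell its own response to IL-6, moved against Il6 in WT cells. Its level was 37, 37.6 and 35.4 CPM in unstimulated WT libraries, 2.81, 2.87 and 4.04 CPM after LPS with DMSO, and 17.8, 19.6 and 21.2 CPM after LPS with defactinib. The 3 groups did not overlap, and the defactinib libraries lay in between. Il6ra fell by 3.50 on the log2 scale with LPS (SE 0.23, adjusted p = 2.1e-08) and was higher with defactinib than with DMSO by 2.59 (SE 0.22, adjusted p = 2.6e-07). Against unstimulated WT the defactinib group was at -0.91 on the log2 scale (adjusted p = 0.00211), within the threshold of 1, and of -1.09, past it, when libraries were scaled by size alone.

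In IRF5 KO cells Il6ra was at 36.7, 31.9 and 40.4 CPM before LPS, at 11.3, 11.6 and 21.8 CPM after LPS with DMSO and at 11.9, 13.7 and 12.9 CPM after LPS with defactinib. Both stimulated groups lay below all unstimulated libraries, and replicate 3 of the DMSO group was again the one nearest to them. The unstimulated genotypes overlapped (log2 fold change 0.01, SE 0.2, adjusted p = 0.992). Il6ra fell by 1.29 with LPS and DMSO (SE 0.21, adjusted p = 0.00087) and by 1.5 with LPS and defactinib (SE 0.21, adjusted p = 8.48e-05), both against unstimulated IRF5 KO. The former was -0.73 without replicates 1 and 2, no longer past the fold threshold, and lost its call in a fit of only the groups compared, at -1.25 (adjusted p = 0.0993). After LPS with DMSO Il6ra was lower in WT than in IRF5 KO by a log2 fold change of -2.20 (SE 0.22, adjusted p = 1.91e-06), at -1.82 without replicate 3 and -2.77 without replicates 1 and 2, all called. Its response to LPS differed between the genotypes by -2.21 (SE 0.3, adjusted p = 3e-04).

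Il6st, the gp130 gene that all of these ligands depend on, stepped down in WT from unstimulated cells to LPS and on to LPS with defactinib. WT libraries held 181, 185 and 148 CPM before LPS, 47.5, 52.5 and 56.1 CPM after LPS with DMSO and 29.2, 26.2 and 28.7 CPM after LPS with defactinib. None of these groups overlapped. Il6st fell by 1.72 with LPS (SE 0.11, adjusted p = 2.1e-08) and by 2.61 with LPS and defactinib (SE 0.12, adjusted p = 1.17e-09), both against unstimulated WT. The step from DMSO to defactinib was -0.89 (SE 0.11, adjusted p = 9.63e-06), which passed the test and not the fold threshold.

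The IRF5 KO libraries held 179, 166 and 174 CPM of Il6st before LPS, 98.5, 94.7 and 125 CPM after LPS with DMSO and 142, 139 and 145 CPM after LPS with defactinib. In this genotype the defactinib group lay nearer to the unstimulated cells than the DMSO group did. Here the step from DMSO to defactinib was 0.42, without overlap (SE 0.11, adjusted p = 0.0499), which passed the test and not the fold threshold. The log2 fold changes against unstimulated IRF5 KO were -0.70 with DMSO (adjusted p = 0.000714) and -0.29 with defactinib (adjusted p = 0.0393), both within the fold threshold. Unstimulated genotypes overlapped, with a log2 fold change of -0.01 (SE 0.11, adjusted p = 0.977). WT was below IRF5 KO by -1.03 after LPS with DMSO (SE 0.11, adjusted p = 3.79e-06), which fell inside the threshold at -0.89 without replicate 3, and by -2.34 after LPS with defactinib (SE 0.12, adjusted p = 1.19e-09).

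The levels of both receptor genes together gave a ratio that separated the WT groups. Per kb of exon there were 0.276 ± 0.0257 units of Il6ra for each unit of Il6st in unstimulated WT, 0.0796 ± 0.0117 after LPS with DMSO and 0.898 ± 0.1 after LPS with defactinib (SD, n = 3 each). The defactinib value exceeded every other library of the series. In IRF5 KO the ratio was 0.27 ± 0.0255 before LPS (SD, n = 3) and 0.116 ± 0.0101 after LPS with defactinib (SD, n = 3), and the IRF5 KO LPS DMSO libraries had 0.146, 0.157 and 0.223.

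**Figure D3:**
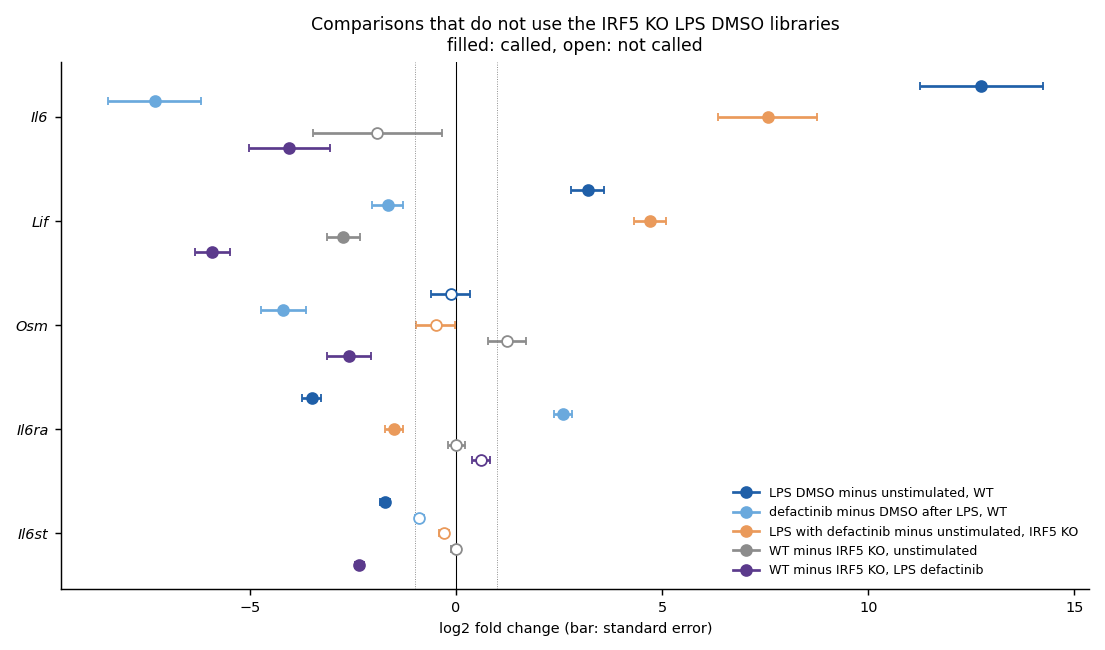
Log2 fold changes of the 5 members (points, bars are the standard error) in 5 of the 6 comparisons that use no IRF5 KO LPS DMSO library, filled where called and open where not, with dotted lines at the fold threshold. Il6 with LPS in WT is farthest to the right at 12.74, and Il6st and Osm with defactinib are lower in WT than in IRF5 KO, at -2.34 and -2.59.

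Set beside the background of each comparison, the counts of members called were as follows. LPS with DMSO in WT changed 4 of the 5 members, Il6 and Lif higher and Il6ra and Il6st lower, where 21.3% of tested genes were called, 11.6% higher and 9.71% lower. Defactinib against DMSO after LPS in WT called 4, Il6, Lif and Osm lower and Il6ra higher, where 29.1% of genes were called, 18.6% lower and 10.4% higher. These comparisons share the WT LPS DMSO libraries. LPS with defactinib against unstimulated WT called 4 (24.9% of genes), Il6 and Lif higher and Osm and Il6st lower, of which limma-voom called only Osm and Il6st. WT against IRF5 KO after LPS with defactinib called 4, Il6, Lif, Osm and Il6st, all lower in WT, where 17.3% of genes were called, 8.87% lower and 8.45% higher. Il6ra was at 0.61 in that comparison (adjusted p = 0.0311), within the fold threshold. In IRF5 KO cells LPS with defactinib called 3, Il6 and Lif higher and Il6ra lower, where 24% of genes were called, 7.85% higher and 16.2% lower.

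The split of all genes called into higher and lower depended on the scaling. For LPS in WT it was 1819 higher and 1521 lower, and 1295 and 2834 when libraries were scaled by size alone. For defactinib in LPS-stimulated WT it went from 1636 higher and 2916 lower to 2350 and 2426, and for LPS with defactinib in IRF5 KO from 1229 and 2537 to 817 and 3746. LPS with defactinib in WT went from 1425 and 2471 to 1134 and 3002. For WT against IRF5 KO the balance turned, from 595 and 550 to 504 and 654 before LPS. With LPS and defactinib it turned the other way, from 1323 and 1389 to 1482 and 1211. Of the comparisons with the IRF5 KO LPS DMSO libraries, LPS in IRF5 KO went from 1108 and 983 to 901 and 1685, defactinib in IRF5 KO from 25 and 119 to 12 and 198, and WT against IRF5 KO from 2195 and 1841 to 1623 and 2637. The interaction with LPS went from 992 and 547 to 653 and 807, and that with defactinib from 1647 and 1921 to 2853 and 1280.

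The counts that use the IRF5 KO LPS DMSO group moved with its libraries, as did their background. LPS with DMSO in IRF5 KO called 3 members, Il6, Lif and Il6ra (13.3% of genes), 4 without replicate 3 (26.2%) and 2 without replicates 1 and 2 (2.71%). Defactinib against DMSO in LPS-stimulated IRF5 KO cells called none by edgeR (0.919% of genes), none by DESeq2 and 1, Lif, by limma-voom. By edgeR, 2 members, Lif and Il6st, had an unadjusted p under 0.05. Of these Il6st, at 0.42 (adjusted p = 0.0499), missed only the fold threshold, and Lif had an adjusted p of 0.0939. Without replicate 3 that comparison called 1 (1.45% of genes), and without replicates 1 and 2 it called 2 (19.2%). WT against IRF5 KO after LPS with DMSO called all 5 members (25.8% of genes), 4 without replicate 3 (34.5%) and 3 without replicates 1 and 2 (16%). The directions of those 5 were Il6 and Osm higher in WT and Lif, Il6ra and Il6st lower in WT.

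**Figure D4:**
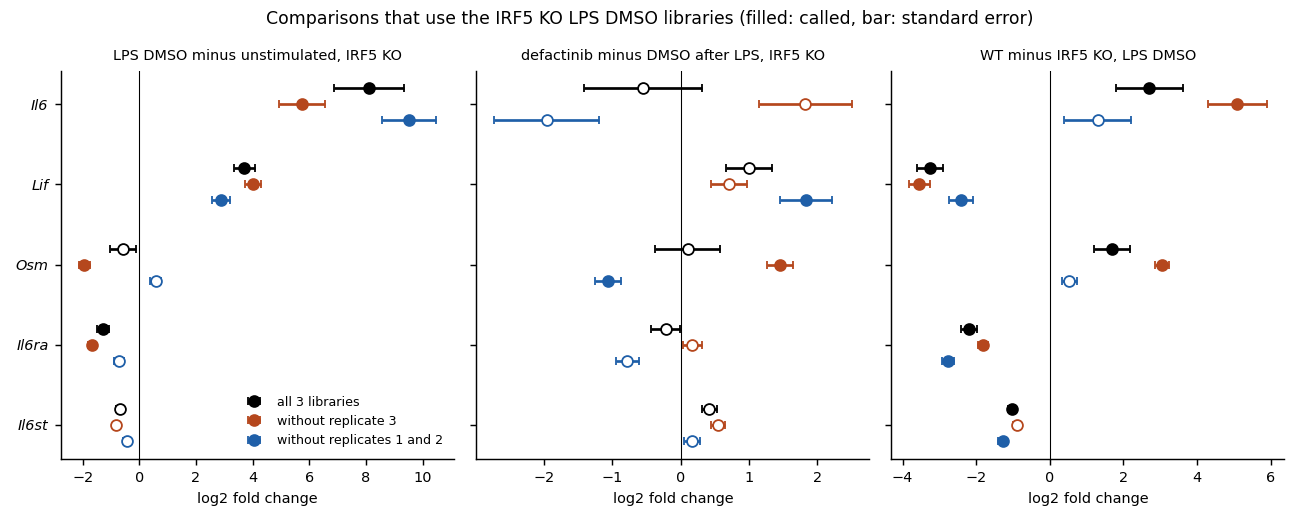
Log2 fold changes of the 5 members in 3 of the 5 comparisons that use the IRF5 KO LPS DMSO libraries, with all 3 libraries (black), without replicate 3 (red) and without replicates 1 and 2 (blue), filled where called, with bars for the standard error. Osm with defactinib in IRF5 KO cells is at 1.46 without replicate 3 and at -1.06 without replicates 1 and 2, and Lif stays lower in WT than in IRF5 KO in all 3 fits.

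The difference between the genotypes in their response was tested directly. The response to defactinib after LPS differed for all 5 members (22.8% of genes called), and the call held for all 5 without replicate 3 (31.6%) and without replicates 1 and 2 (19.1%). Subtracting the IRF5 KO from the WT response gave log2 differences of -6.76 for Il6 (SE 1.34, adjusted p = 0.00118), -4.28 for Osm (SE 0.71, adjusted p = 0.000297) and 2.81 for Il6ra (SE 0.3, adjusted p = 4.77e-06). For Lif it was -2.66 (SE 0.49, adjusted p = 0.000708) and for Il6st -1.31 (SE 0.16, adjusted p = 1.35e-05), which was -0.97, inside the fold threshold, when libraries were scaled by size alone.

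The response to LPS differed between the genotypes for 2 members, Il6ra and Il6st (-1.02, SE 0.16, adjusted p = 0.000756), where 9.83% of genes were called. It was called for 3 without replicate 3 (23.6%) and for 2 without replicates 1 and 2 (6.48%). For Il6 the difference of 4.63 did not pass the test (SE 1.75, adjusted p = 0.0822), and it was called by DESeq2 at 4.66 (adjusted p = 0.00291), with the replicate number as a block at 5.72 (adjusted p = 0.025) and without replicate 3 at 7.01 (adjusted p = 0.002). The call of Il6st lay close to the fold threshold and was lost without unstimulated WT replicate 1 (-0.98) or 2 (-0.96), without WT LPS DMSO replicate 1 (-0.97), without unstimulated IRF5 KO replicate 2 (-0.99) and without IRF5 KO LPS DMSO replicate 3 (-0.88).

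The other ligands and receptors of the family were few in these cells. Of 7 other cytokine genes 3 passed the filter, and of 6 other receptor genes 4 did. Clcf1, a ligand of the CNTF receptor, went with Il6 in WT, at 14.6 ± 3.56 CPM before LPS, 88.7 ± 15.5 CPM after LPS with DMSO and 9.08 ± 1.35 CPM after LPS with defactinib (SD, n = 3 each). In IRF5 KO it rose from 7.55 ± 1.27 to 53.8 ± 3.99 CPM with LPS and defactinib (SD, n = 3; log2 fold change 2.83, adjusted p = 4.2e-07). Il27, which encodes the p28 subunit of IL-27, was at 104 ± 23.4 CPM in WT LPS DMSO and at 0.433 ± 0.362 CPM in WT LPS defactinib (SD, n = 3), a log2 fold change of -7.93 (adjusted p = 0.000228). It was at 0.337 ± 0.252 CPM in IRF5 KO LPS defactinib (SD, n = 3), and its log2 fold change there against unstimulated cells was 0.32 (adjusted p = 0.877). The IRF5 KO LPS DMSO libraries ran from 0.106 to 15.6 CPM of Il27. Against unstimulated IRF5 KO cells this group was called higher, at 4.26 (adjusted p = 0.0198), although the groups overlapped.

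Lifr, the receptor subunit for LIF, had the same order of genotypes as Lif. It was at 2.18 ± 0.279 CPM in unstimulated WT and 14.9 ± 1.68 CPM in unstimulated IRF5 KO (SD, n = 3 each), a log2 fold change of -2.77 (adjusted p = 1.78e-06). With LPS and defactinib the log2 fold change of WT against IRF5 KO was -2.12 (adjusted p = 7.63e-06), and LPS with DMSO in WT left it at 0.01 (adjusted p = 0.973). Osmr, the receptor subunit for oncostatin M, did not pass the filter and was at most 0.0767 CPM in any library. Il11ra1, the IL-11 receptor gene, had the highest level per length of the 4 other receptor genes that passed the filter, with group means from 11.1 CPM per kb of exon in IRF5 KO LPS DMSO to 23.5 CPM per kb in unstimulated WT, and it was called in none of the comparisons. Of these genes Il31ra also differed, higher in unstimulated WT by 1.44 (adjusted p = 0.000423).

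Genes of the signalling path below the receptors changed in part. Of 16 listed genes for JAK, STAT and feedback proteins, 16 passed the filter. LPS with DMSO in WT called 6 of them higher and none lower, where 11.6% of all genes were called higher, among them Stat3 (1.05, adjusted p = 0.000277) and Socs3 (2.73, adjusted p = 5.55e-06), with a median log2 fold change of 0.86 over the list against -0.005 over all tested genes. Defactinib in LPS-stimulated WT called 8 lower and none higher, where 18.6% of all genes were called lower, with a median of -0.92 against 0.086. Socs3 was at 573 ± 27.6 CPM in WT LPS DMSO, 193 ± 31.5 CPM in WT LPS defactinib and 967 ± 74.2 CPM in IRF5 KO LPS defactinib (SD, n = 3 each). With defactinib Socs3 was lower in WT than in IRF5 KO, at -2.33 on the log2 scale (adjusted p = 2.98e-05). That comparison called 2 of the 16 genes, Socs3 and Cish, both lower in WT. Among all genes it called 17.3%, with 8.87% lower in WT.

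Of 9 listed STAT3 targets, which include Socs3, LPS with DMSO in WT called 5 higher and none lower (median 1.34, 11.6% of all genes higher), and defactinib after LPS called 5 lower and none higher (median -1.27, 18.6% of all genes lower). With defactinib 7 of 9 were lower in WT than in IRF5 KO and 1, Timp1, was higher (median -1.6 against 0.025 over all genes, of which 8.87% were lower). Among the 7 were Pim1, a survival kinase (-1.74, adjusted p = 0.00339), and Bcl3, a nuclear IκB protein (-2.36, adjusted p = 0.000215). These genes also answer to other pathways that LPS activates, and the part of IL-6 family signalling in them was not tested. Of 4 genes for shedding of receptors from the cell surface, the proteases Adam10 and Adam17 were not called in WT by LPS or by defactinib, while Rhbdf1 and Rhbdf2, which encode the partners iRhom1 and iRhom2 that carry ADAM17 to the surface, were called higher with LPS and lower with defactinib. Rhbdf2 was at 82.6 ± 5.48, 215 ± 11 and 23.6 ± 3.79 CPM in WT unstimulated, LPS DMSO and LPS defactinib libraries (SD, n = 3 each).

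Listed regulators of Il6 transcription and mRNA decay divided. Of 12, LPS with DMSO in WT called 6 higher and 1, Cebpb, lower (median 1.09, 11.6% of all genes higher), and defactinib after LPS called 6 lower and 1, Zfp36, higher (median -1.17, 18.6% of all genes lower). Nfkbiz, whose protein IκBζ acts at the Il6 promoter, rose with LPS in WT by 7.99 (adjusted p = 1.5e-07), and it stood at 713 ± 6.77 CPM with DMSO and 634 ± 150 CPM with defactinib (SD, n = 3; log2 fold change -0.17, SE 0.45, adjusted p = 0.764). Zc3h12a fell by 3.89 with defactinib (adjusted p = 7.72e-08) and Arid5a, whose protein stabilises Il6 mRNA, fell by 3.13 (adjusted p = 9.58e-06). Zfp36, which encodes the mRNA-decay protein tristetraprolin, rose by 2.08 (adjusted p = 0.0015). With defactinib 7 of the 12 were lower in WT than in IRF5 KO and 1, Arid5a, was higher (median -1.16, 8.87% of all genes lower).

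**Figure D5:**
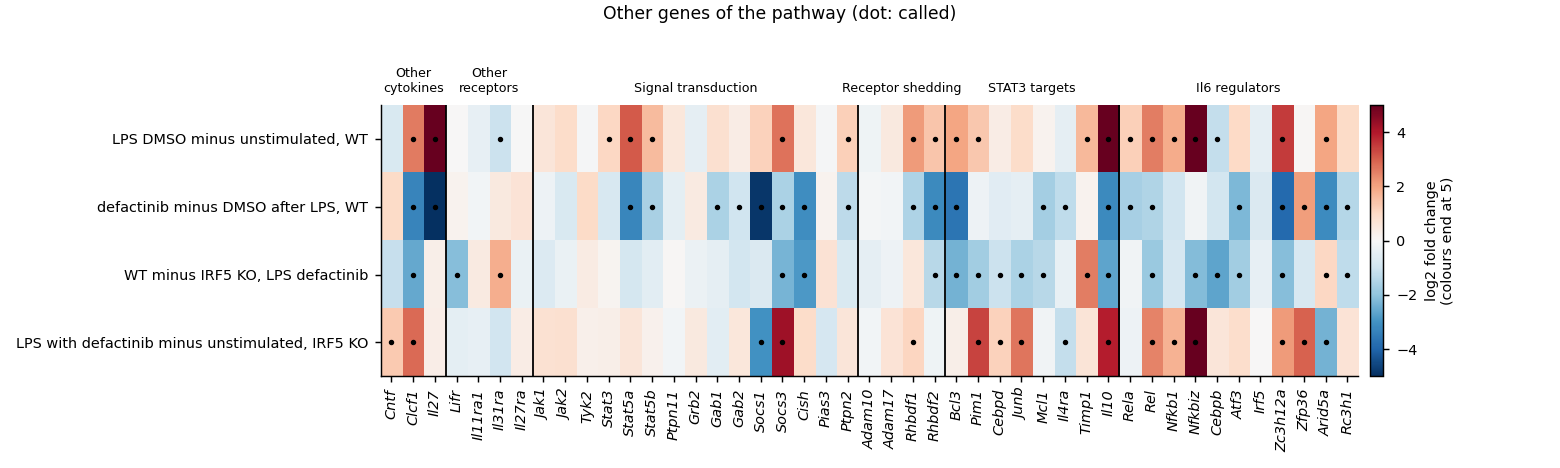
Log2 fold changes (colour, ending at 5) of the listed family, signalling, shedding, STAT3 target and Il6 regulator genes that passed the filter, in 4 comparisons (rows), with a dot where called, with genes of 2 lists shown once and 1 signalling gene left out. Clcf1 and Socs3 are red with LPS in WT, at 2.61 and 2.73, blue with defactinib in WT, at -3.29 and -1.57, and red with LPS and defactinib in IRF5 KO, at 2.83 and 4.25.

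LPS with defactinib against unstimulated IRF5 KO called 2 of 3 other cytokines higher, Clcf1 and Cntf. Cntf was low in both groups, at 0.192 ± 0.022 CPM before LPS and 0.473 ± 0.0489 CPM with LPS and defactinib (SD, n = 3 each). The same comparison called 1 of 16 signalling genes higher and 1 lower, and 5 of 9 STAT3 targets higher and 1 lower. Of the Il6 regulators it called 6 higher and 1, Arid5a, lower. Over all genes it called 7.85% higher and 16.2% lower.

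The genes whose log2 CPM was most like that of each member over the 18 libraries were, by Pearson r, Marcksl1 (0.983), Adgrg6 (0.978) and Rnf11 (0.973) for Il6. For Lif they were Pdk3 (0.958), Elavl1 (0.942) and Polr1c (0.941), and for Osm Irf4 (0.979), Arf6 (0.978) and Hmgcs1 (0.976). Il6ra was most like Inpp5d (0.988), Agfg2 (0.979) and Ppp1r21 (0.976), and Il6st most like Gnl3 (0.986), Tada1 (0.986) and Rfx7 (0.975). Between the members r was -0.87 for Il6 and Il6ra, 0.61 for Il6 and Lif, 0.57 for Osm and Il6st, and -0.15 for the chromosome 11 neighbours Lif and Osm. The 18 points share groups and depth, so these values describe the libraries and carry no test.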

How the data were processed

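The deposited table holds raw counts of read pairs per gene, which the authors made by aligning 150-base paired-end reads to mm10 with STAR and counting uniquely mapped pairs over exons with featureCounts 1.6.3, reverse stranded. The counts are not normalized. The study used DESeq2. Its thresholds were kept here, so that genes were called where the fold change exceeded 2 with a Benjamini-Hochberg adjusted p under 0.05 over 15663 genes. The main test was edgeR's quasi-likelihood F test (version 4.0.16, in R 4.3.3), two-sided and robust, after TMM normalization. All 18 libraries were fitted together with a mean for each of the 6 groups, and low genes were removed by filterByExpr. The SE is the log2 fold change divided by the square root of F. The steps were tested on simulated data. Depth was 39282181 to 61949143 counts per library, and CPM carry counting error that is large only at the lowest values.

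The 5 members and the gene lists were chosen with earlier results of these data known, and the motif letters with the sequences in view. Every member is named. 1 listed signalling gene is counted with its list but not reported here. The rule for list genes was the highest levels and calls in most comparisons, and others among those named, such as Osmr, were chosen after their values were seen. For likeness the rule took the 3 genes of mean log2 CPM at least 3 with the highest Pearson r (prior count 2). Starts and ends of the members were the same in GENCODE M21. Promoters are from RefSeq (GRCm38.p6), in which 4 of the 5 members were matched and Osm was not. Replicate numbers were not taken as pairs of libraries, since the sources do not state that they are. Alternatives were the tools DESeq2 1.42.0 and limma-voom (limma 3.58.1), scaling by the size factors of DESeq2 or by library size, fits without a filter or with 5 CPM in 3 libraries, the replicate block, only the groups compared, glmTreat at log2 0.5 or no fold threshold, and leaving out libraries.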

Additional observations from a re-analysis of the deposited data

Results flagged for a closer look

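The following differences between the genotypes passed a test of the difference itself, the interaction term of edgeR's quasi-likelihood fit, and each is the WT response minus the IRF5 KO response on the log2 scale. For LPS with DMSO against unstimulated cells they were Il6ra at -2.21 and Il6st at -1.02. For defactinib against DMSO after LPS they were Il6 at -6.76, Lif at -2.66, Osm at -4.28, Il6ra at 2.81 and Il6st at -1.31. All 7 use the IRF5 KO LPS DMSO libraries. Without replicate 3 of that group Il6st in the response to LPS was at -0.88 and no longer past the fold threshold, and the other 6 were called without replicate 3 and without replicates 1 and 2. For Il6 the value for defactinib was -9.14 without replicate 3 and -5.35 without replicates 1 and 2, for Osm -5.65 and -3.12, and for Lif -2.36 and -3.47.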

How the results depend on the processing

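Counts of members called moved as follows. LPS in IRF5 KO called 3 members (2091 genes) and 1, Lif, in a fit of only the groups compared (130). Defactinib in IRF5 KO called 0 (144), and 1 by limma-voom (95) and with no fold threshold (527). With a single library left out it called 0 to 1 (20 to 891). WT against IRF5 KO before LPS called 1 (1145), 2 by DESeq2 (1223) and limma-voom (1182), and 3 in a fit of only the groups compared (1483). With a single library left out it called 1 to 2 (886 to 1376). WT against IRF5 KO after LPS called 5 (4036), and 3 in a fit of only the groups compared (2733). WT LPS defactinib against unstimulated WT called 4 (3896), and 2 by limma-voom (3870). The interaction with LPS called 2 (1539), and 1 to 3 with a single library left out (1068 to 3778). It called 1 without unstimulated WT replicate 1 or 2, WT LPS DMSO replicate 1 or unstimulated IRF5 KO replicate 2.

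Directions turned only for differences that did not pass the main test. For defactinib in IRF5 KO, Il6 (-0.55) was 0.53 by limma-voom, -1.96 without replicates 1 and 2, and -1.06 to 1.82 with a single library left out. Osm (0.10) was -0.11 by library size alone, -1.06 without replicates 1 and 2, and -0.33 to 1.46 with a single library left out. Il6ra (-0.22) was -0.78 without replicates 1 and 2, and -0.4 to 0.17 with a single library left out. Between unstimulated genotypes Il6ra (0.01) was -0.09 by library size alone, 0 with no filter and -0.07 to 0.09 with a single library left out, and Il6st (-0.01) was -0.07 to 0.08. Osm with LPS in IRF5 KO was 0.57 without replicates 1 and 2, and -1.94 to -0.16 with a single library left out. The interaction with LPS was 0.32 for Lif and -0.71 for Osm without replicates 1 and 2, and -0.8 to -0.35 and 0.02 to 1.81 with a single library left out. The causes were not tested.

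With the replicate block, Il6 for defactinib in IRF5 KO was 0.3 and the interaction of Il6 with LPS was called at 5.72, and the block changed no other call of a member. Over 45 pairs of same-numbered libraries the deviations from the group means correlated at a median of 0.005, with 4 pairs above 0.1. Of 18 libraries, 12 correlated best with their own number, more than an even spread over the replicate numbers would give. These values do not settle whether the numbers were shared. The numbers were not taken as pairs because the sources do not state that they are.

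Over all members, comparisons and alternatives, 1534 values kept their direction and side of the thresholds, 24 passed them newly, 20 lost them and 17 turned. Scaling by library size alone put the median of all genes at -0.383 for LPS in WT, against -0.005, and at 0.451 for the interaction with defactinib, against 0.123. Depth limits Il6 before LPS, at 5 to 11 counts in WT and 24 to 37 in IRF5 KO libraries.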
